A study of Mus musculus with 3 samples.

Results

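The T cell receptor signalling genes examined here are 43 mouse genes, from the chains of the receptor complex through its kinases and adaptors to the phosphatases and ubiquitin ligases that restrain it. They were listed by symbol and not by level, but with earlier results of these data known. Each was read from probe sets that carried its symbol alone, and, where there were several, from the brightest on average. This gave 42 genes, of 18193 named on the arrays, through 91 probe sets, and 1 listed gene was not analysed here. Of the 42 genes, 41 were above the background floor on at least 1 array and 39 on all 3. Sla2, an adaptor of the Slap family, was under the floor on every array and has no ratio.

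A T cell receptor has no enzyme of its own. When it binds its ligand, Src kinases phosphorylate motifs in the CD3 and zeta chains, ZAP-70 docks there and phosphorylates the scaffolds LAT and SLP-76, and these assemble phospholipase C gamma, exchange factors for Ras and Rac, and the route to NF-kB. Phosphatases, the kinase Csk, Cbl ubiquitin ligases, Sts proteins and diacylglycerol kinases set the threshold, and in helper T cells the strength and length of this signal bear on which cytokines a cell comes to make.

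The RNA came from CD4+CD25- T cells of spleen and lymph node. Donors were female mice aged 6 to 8 weeks on the BALB/c background that lack both Stat6 and T-bet (gene Tbx21), transcription factors of Th2 and Th1 cells, so all groups carried both deletions. In all groups the receptor itself was engaged for 2 days by plate-bound anti-CD3 at 5 µg/ml, with anti-CD28 at 1 µg/ml. The cytokines added were TGFβ at 5 ng/ml, IL-6 with IL-23 at 10 ng/ml each, or IL-6 and TGFβ together at 10 and 5 ng/ml. Every condition had 1 array, and whether animals were pooled is not given in the sources used here. With no replicates there is no test and no p-value, and all ratios below describe 3 arrays. The 3 pairs of arrays share arrays with one another, so their ratios are not independent.

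The deposited values were linear intensities whose medians ran from 17.8 with IL-6/IL-23 to 35.8 with TGFβ, and they were quantile-normalized. Levels are normalized intensities in arbitrary units. Where 3 levels follow a gene they come from the TGFβ array first, then IL-6/IL-23, then IL-6/TGFβ. Ratios are differences of log2 levels. The background floor comes from 137 probe sets for genes of tissues outside blood, over the 3 arrays together. Of their values, 95% lie under this floor, 85.9. Values under it were raised to it, and a ratio with 1 array there is a bound. The transferrin receptor control read 2.49 to 2.65 times as high at its 3' as at its 5' end. Probe sets for the deleted genes gave signal on every array (Stat6 between 191 and 259, Tbx21 between 118 and 205), and no label states where either gene was deleted, so these values check nothing. All 5 B cell markers and both erythroid markers with a probe set were under the floor on all arrays. Of 8 myeloid and dendritic markers, 1 was above it on the TGFβ array and 0 on the others. Of 5 CD8 T cell and NK cell markers, 3, 2 and 1 were above it in the order of the arrays, with summed levels of 413, 387 and 245. Foxp3, the regulatory T cell marker, read 498 and 232 with TGFβ and IL-6/TGFβ and was under the floor with IL-6/IL-23. Cd8a read 145 and 120 and was under the floor with IL-6/TGFβ, Cd8b1 read 140, 174 and 104, Eomes read 107 with TGFβ and was under the floor on the others, and the NK cell genes Ncr1 and Klrd1 were under it throughout. The part of these cells in the values below was not tested. Cd4, for which the cells are named, and the Cd3 genes, which mark T cells, were above the floor on all arrays. In a bulk sample, fewer cells of a type and less RNA per cell cannot be told apart.

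A gene was counted as different in a pair when its levels were 2-fold or more apart and the higher one exceeded the floor. By this rule 11 of the 41 genes (26.8%) differed in at least 1 pair: Txk, Malt1, Ptpn22, Sit1, Trat1, Plcg1, Themis, Sla, Ubash3a, Cblb and Rasgrp1. Over all named genes the share was 10.6% (916 of 8612). The list was chosen with earlier results of these data known, so these shares are descriptive only. A further 12 genes reached 1.5-fold but not 2-fold in some pair, and 18 stayed under 1.5-fold in all pairs. The range of a gene over the 3 arrays had a median of 0.65 log2 units among these genes and 0.41 among all named genes. The only error that could be estimated was the SD of the ratio between probe sets of 1 gene, at 0.21 for IL-6/TGFβ against TGFβ, 0.28 for IL-6/TGFβ against IL-6/IL-23 and 0.29 for IL-6/IL-23 against TGFβ. It leaves out differences between cultures, mice and arrays.

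**Figure D1:**
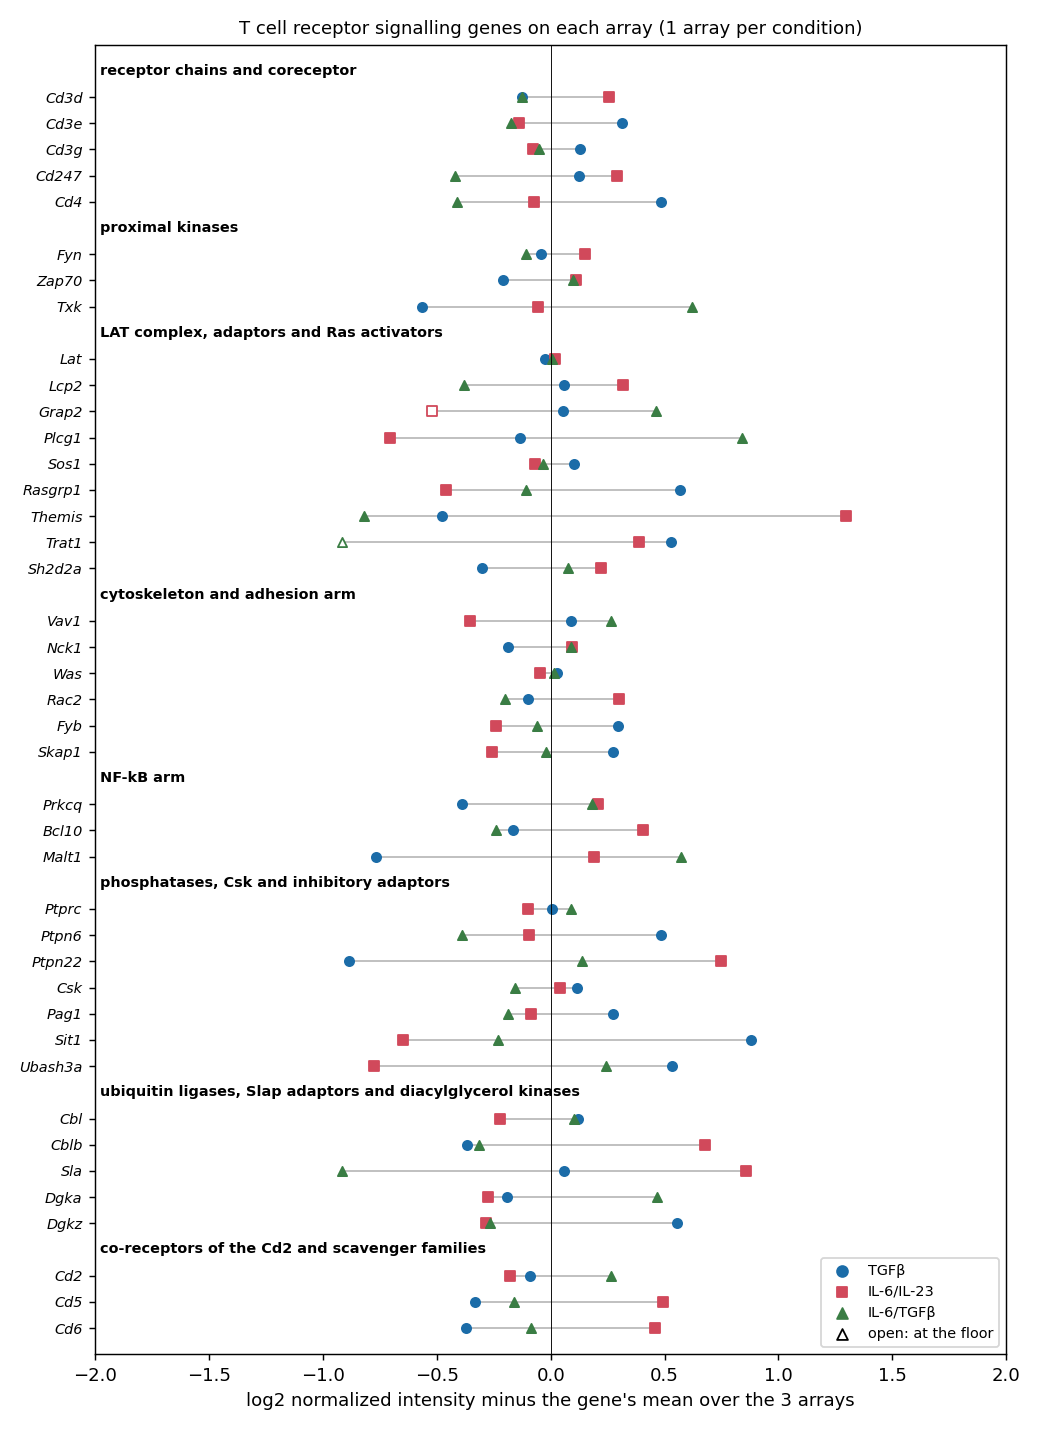
Log2 normalized intensity of 41 T cell receptor signalling genes on the TGFβ (circles), IL-6/IL-23 (squares) and IL-6/TGFβ (triangles) arrays, relative to each gene's own mean over the 3 arrays and grouped by role. Open symbols are values at the floor, and each symbol is 1 array. Lat and Was keep 3 overlapping symbols, whereas Themis and Sla are spread widest with IL-6/IL-23 highest.

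The array on which a gene was highest differed across the list. The TGFβ array was highest for 16 of the 41 genes (39.0%, against 26.7% of 8612 named genes), the IL-6/IL-23 array for 17 (41.5%, against 41.7%) and the IL-6/TGFβ array for 8 (19.5%, against 31.5%). These shares depended on scaling. With each array scaled to the same median, the TGFβ, IL-6/IL-23 and IL-6/TGFβ arrays were highest for 34.1%, 48.8% and 17.1% of the 41 genes and for 27.2%, 53.9% and 18.9% of all named genes. Without scaling they were highest for 78.0%, 9.76% and 12.2% of the 41 genes and for 86.4%, 2.90% and 10.7% of all named genes.

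The upstream sequences shown here belong to the genes with the largest ratio in either direction of a pair, namely Themis, Trat1, Plcg1 and Sit1; Malt1 belongs to that set too and is named only. They are the 250 bases before the annotated start, 5′ to 3′ on the gene's strand, from RefSeq on GRCm38.p6. The table matched 34 of the 43 listed genes. Themis lies at chr10:28668110-28668359 (+ strand, the upstream one of 2 annotated starts), Trat1 at chr16:48772063-48772312 (- strand), Plcg1 at chr2:160731060-160731309 (+ strand) and Sit1 at chr4:43483710-43483959 (- strand). Capitals mark matches, on either strand, to a STAT site (TTCNNNGAA), an AP-1 site (TGANTCA), a SMAD element (CAGACA) or a Runx site (TGTGGT).
Themis: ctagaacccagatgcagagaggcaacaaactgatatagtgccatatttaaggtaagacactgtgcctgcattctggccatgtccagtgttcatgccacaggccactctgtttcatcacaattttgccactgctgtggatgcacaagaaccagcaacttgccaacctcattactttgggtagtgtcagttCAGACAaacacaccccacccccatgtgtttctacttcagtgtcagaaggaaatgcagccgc
Trat1: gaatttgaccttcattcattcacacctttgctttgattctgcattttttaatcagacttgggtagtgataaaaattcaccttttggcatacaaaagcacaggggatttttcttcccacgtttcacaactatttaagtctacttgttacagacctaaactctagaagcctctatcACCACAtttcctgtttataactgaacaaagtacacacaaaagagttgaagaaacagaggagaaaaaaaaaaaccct
Plcg1: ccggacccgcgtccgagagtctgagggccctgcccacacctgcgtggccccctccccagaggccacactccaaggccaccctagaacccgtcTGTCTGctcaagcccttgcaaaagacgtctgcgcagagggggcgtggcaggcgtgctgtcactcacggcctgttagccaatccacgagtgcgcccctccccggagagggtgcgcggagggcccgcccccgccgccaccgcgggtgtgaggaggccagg
Sit1: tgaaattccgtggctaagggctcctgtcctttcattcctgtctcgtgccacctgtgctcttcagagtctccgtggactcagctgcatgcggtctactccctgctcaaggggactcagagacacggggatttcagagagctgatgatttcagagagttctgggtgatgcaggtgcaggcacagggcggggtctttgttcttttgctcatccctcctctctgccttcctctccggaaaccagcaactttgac
Themis held a SMAD element that began 61 bases before the start, Plcg1 a SMAD element at 158 bases and Trat1 a Runx site at 76 bases, while Sit1 held none of the 4 motifs. Such matches are common: of 32851 upstream windows of this length, 17.1% held the SMAD element, 14.0% the Runx site, 7.02% the STAT site and 6.75% the AP-1 site. Over 47 windows of the listed genes the shares were 12.8%, 17.0%, 6.38% and 0%. A match is a description of letters and not a bound site.

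The receptor group holds 5 genes, and 0 were 2-fold apart in any pair, too few to set apart from the 10.6% of all named genes. Cd3d read 4744, 6189 and 4744, Cd3e 1850, 1351 and 1319, and Cd3g 2630, 2282 and 2320. These are the signalling chains that flank the antigen receptor, their genes are neighbours in RefSeq, and no ratio among them exceeded 0.49 in size. With median scaling Cd3d gave -0.73 for IL-6/TGFβ against IL-6/IL-23 and 0.66 for IL-6/IL-23 against TGFβ. Cd247, the zeta chain with most of the complex's phosphorylation motifs, read 1175, 1320 and 806, and was lowest with IL-6/TGFβ (-0.54 against TGFβ and -0.71 against IL-6/IL-23). A further Cd247 probe set gave 0.06 and -0.20, so the probe sets did not share this gap.

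Cd4, the coreceptor that binds MHC class II and brings a Src kinase to the receptor, had the largest ratio of the receptor group. It read 1333, 904 and 716, a ratio of -0.90 for IL-6/TGFβ against TGFβ. A further probe set of Cd4 gave -0.96. Both lay just under 2-fold, and with median scaling Cd4 was counted as lower.

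Of the proximal kinases, Fyn, a Src kinase, and Zap70, which binds the phosphorylated chains, kept every ratio of the brightest probe set within 0.32 in size. Further probe sets gave larger values: for IL-6/IL-23 against TGFβ those of Zap70 gave 0.67 and 0.61, and for IL-6/TGFβ against TGFβ that of Fyn gave -0.57. Txk, a T cell kinase of the Tec family that acts on phospholipase C gamma, read 206, 293 and 468. It was highest with IL-6/TGFβ, 2.27-fold above TGFβ (1.18), and 1.60-fold above IL-6/IL-23 (0.67). Txk has 1 probe set. An alternative left out all probe sets with the suffixes _s, _x or _a, this one among them, so Txk then had no ratio. With a floor at the 99th percentile its count was lost (0.93).

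The scaffolds were split. Lat, the membrane scaffold, read 4756, 4908 and 4864 with no ratio above 0.05 in size. With median scaling Lat gave -0.32 for IL-6/TGFβ against IL-6/IL-23. Lcp2, which encodes its partner SLP-76, read 3382, 4052 and 2497, or -0.70 for IL-6/TGFβ against IL-6/IL-23, where its further probe set gave -0.90. Grap2, which encodes the Gads adaptor that ties SLP-76 to LAT, read 128 and 170 with TGFβ and IL-6/TGFβ and was under the floor with IL-6/IL-23. Its bound was at least 1.98-fold higher under IL-6/TGFβ, just short of the rule, and the lower floor at the 90th percentile made it a call (1.56).

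Plcg1 encodes phospholipase C gamma, the enzyme that splits a membrane lipid into diacylglycerol and the messenger that releases calcium. It read 905, 609 and 1776. The IL-6/TGFβ level stood 2.92-fold above that with IL-6/IL-23 (1.55) and 1.96-fold above that with TGFβ (0.97), so the TGFβ and IL-6/IL-23 arrays lay closer to each other than either did to IL-6/TGFβ. Its 2 further probe sets were under the floor on all arrays, and the mean of its probe sets gave no readable ratio.

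Themis, an adaptor known for thymocyte selection that tunes receptor signals, had the largest ratio of the list in either pair with the IL-6/IL-23 array, and a small one in the remaining pair. It read 364, 1242 and 286. The IL-6/IL-23 level was 4.34-fold that with IL-6/TGFβ (-2.12 for IL-6/TGFβ against IL-6/IL-23) and 3.42-fold that with TGFβ (1.77), while the cultures with TGFβ differed by 0.35. Further probe sets of Themis gave -2.11 and -1.84 in the first of these pairs and 2.08 and 1.81 in the other. Among 7565 other named genes above the floor on all 3 arrays, the profiles closest to Themis were those of Spry1, Slfn2 and Btla, with root mean square differences of 0.035, 0.092 and 0.12 log2 units over the 3 arrays. Spry1 read 438, 1415 and 342.

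Trat1 encodes TRIM, a small transmembrane adaptor that associates with the receptor. It read 233 with TGFβ and 212 with IL-6/IL-23, and was under the floor with IL-6/TGFβ. The IL-6/TGFβ level was at least 2.72-fold lower than with TGFβ and at least 2.47-fold lower than with IL-6/IL-23. A lower floor, at the 90th percentile, widened these bounds to -2.61 and -2.47 on the log2 scale. Trat1 was dim, and both calls ended with a floor at the 99th percentile or with the mean of its 2 probe sets (-0.51 and -0.63).

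Of the Ras activators, Sos1 kept within 0.17. Rasgrp1, the exchange factor that diacylglycerol switches on, read 578, 283 and 362. It was 2.04-fold lower under IL-6/IL-23 than under TGFβ (-1.03), at the edge of the rule, and -0.99 with median scaling. The other 3 probe sets of Rasgrp1 were under the floor with IL-6/IL-23, so they gave bounds, between -1.15 and -0.25. With only the TGFβ level above the floor in that pair, the sign of these bounds could not differ. Sh2d2a, the adaptor TSAd, read 915, 1313 and 1188, under 1.5-fold in every pair.

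**Figure D2:**
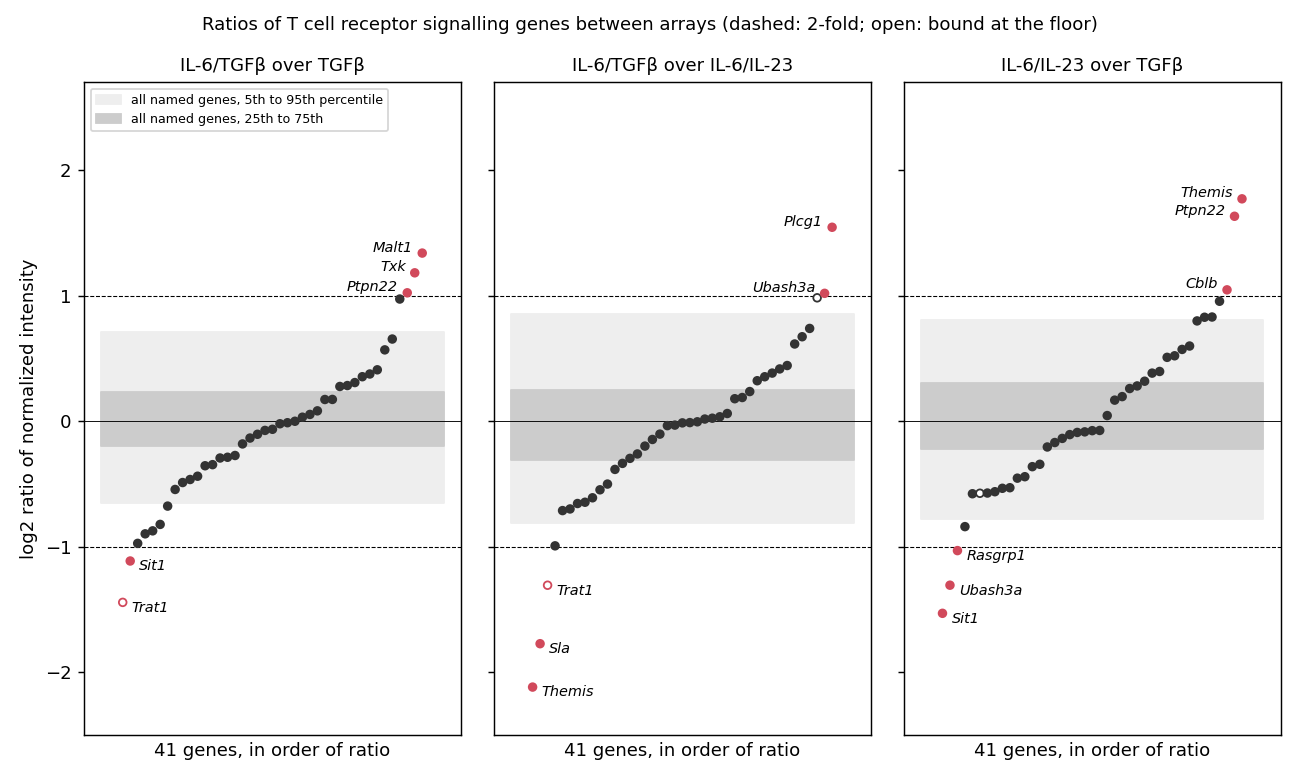
Log2 ratios of 41 T cell receptor signalling genes in each pair of arrays, ordered by ratio. Grey bands are the 25th to 75th and 5th to 95th percentiles of all named genes, dashed lines mark 2-fold, open circles are bounds, and red marks genes at least 2-fold apart. Themis is lowest at -2.12 for IL-6/TGFβ against IL-6/IL-23 and highest at 1.77 for IL-6/IL-23 against TGFβ.

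The cytoskeleton and adhesion arm held 6 genes, and 0 were 2-fold apart in any pair, again too few to set apart from the 10.6% of all named genes. Was, which encodes the actin regulator WASP, read 628, 597 and 623. Nck1, its adaptor, stayed within 0.28, and Rac2, a GTPase, within 0.50. Fyb and Skap1 encode ADAP and SKAP55, partners that couple the receptor to integrins. Fyb read 1127, 779 and 882, and Skap1 read 1031, 714 and 842, so both had the TGFβ array highest and the IL-6/IL-23 array lowest. Vav1, the exchange factor for Rac, read 570, 420 and 644, or 0.62 for IL-6/TGFβ against IL-6/IL-23, where its further probe set gave 0.04.

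The NF-kB arm had 3 genes, all with a ratio above 0 between IL-6/IL-23 and TGFβ (0.57 to 0.96, all short of 2-fold). With median scaling Malt1 passed 2-fold in that pair (1.09), but its further probe sets gave only 0.46 and 0.38 there. Without scaling the ratios of Bcl10 and Prkcq changed sign (-0.32 and -0.29). Malt1, the protease of the complex with Bcl10, read 1525, 2958 and 3859. It was 2.53-fold higher under IL-6/TGFβ than under TGFβ (1.34), and its further probe sets gave 1.25 and 1.59. For IL-6/TGFβ against IL-6/IL-23 it gave 0.38, and these further probe sets gave 0.79 and 1.20. Prkcq, which encodes the protein kinase C theta that starts this arm, read 761, 1153 and 1129, and was level between the cultures with IL-6. Bcl10, the adaptor, followed another order at 766, 1139 and 728. Of its 3 further probe sets, 2 gave ratios of 0.42 and 0.47 for IL-6/IL-23 against TGFβ, and the remaining one gave -0.29.

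Of the 7 phosphatases, Csk partners and Sts proteins, Ptpn22, Sit1 and Ubash3a passed the 2-fold rule, and not all in 1 direction. Ptpn22, a phosphatase of Src and ZAP-70 kinases, read 768, 2383 and 1562. It was 3.10-fold higher under IL-6/IL-23 than under TGFβ (1.63) and 2.03-fold higher under IL-6/TGFβ than under TGFβ (1.02), so both cultures with IL-6 stood above the one without. The smaller of these ratios was 0.91 with median scaling and then no call. Ptpn22 has 1 probe set.

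Sit1, an inhibitory transmembrane adaptor, ran the other way at 388, 134 and 179. It was 2.16-fold lower under IL-6/TGFβ (-1.11) and 2.89-fold lower under IL-6/IL-23 (-1.53) than under TGFβ, on its 1 probe set. A floor at the 99th percentile left both ratios at -0.66. Ubash3a encodes Sts-2, which dampens ZAP-70 signals, and read 725, 293 and 595. It was 2.47-fold lower under IL-6/IL-23 than under TGFβ (-1.31) and 2.03-fold higher under IL-6/TGFβ than under IL-6/IL-23 (1.02). The mean of its probe sets took both under 2-fold (-0.89 and 0.85), and the ratio of 1.02 was 0.85 with median scaling as well. Foxp3 had the same order over the arrays as Sit1, Ubash3a, Rasgrp1, Fyb and Skap1. Dgkz, Cbl, Cd3g, Sos1 and Was had this order too, some of them nearly level. The share of all named genes with this order was not counted, but 26.7% of them were highest with TGFβ. The part of Foxp3-expressing cells in these ratios was not tested.

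None of the remaining phosphatases and Csk partners was 2-fold apart in any pair. Ptprc, which encodes CD45, the phosphatase that opens Src kinases, read 9228, 8573 and 9774. Csk, the kinase that closes them, stayed within 0.27, and its membrane anchor Pag1 within 0.46. Ptpn6, which encodes the phosphatase SHP-1, read 3076, 2061 and 1679 (-0.87 for IL-6/TGFβ against TGFβ), and a further probe set gave -0.73. For IL-6/IL-23 against TGFβ these probe sets gave -0.58 and 0.13.

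Of the Cbl ubiquitin ligases, Cblb, a brake on activation without costimulation, was higher with IL-6/IL-23 and Cbl was not. Cblb read 425, 879 and 442. The IL-6/IL-23 level was 2.07-fold that with TGFβ (1.05) and 1.99-fold that with IL-6/TGFβ (-0.99 for IL-6/TGFβ against IL-6/IL-23), so the ratios fell narrowly on either side of the rule. For IL-6/IL-23 against TGFβ further probe sets of Cblb gave 1.09 and 0.43, and their mean with the first took the call to 0.85. For IL-6/TGFβ against IL-6/IL-23 these further probe sets gave -1.14 and -0.83, and with median scaling Cblb was counted as lower. Cbl read 746, 589 and 736.

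Sla, the Slap adaptor that helps Cbl remove receptor chains from the surface, read 1260, 2192 and 642. The IL-6/TGFβ level was 3.42-fold lower than with IL-6/IL-23 (-1.77), and 1.96-fold lower than with TGFβ (-0.97). Its further probe sets gave -1.93 and a bound of -1.84 for IL-6/TGFβ against IL-6/IL-23. For IL-6/IL-23 against TGFβ the probe set used gave 0.80 and the others 1.20 and 1.26, so that pair passes 2-fold or not by the choice of probe set; without scaling the ratio of Sla changed sign there.

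The diacylglycerol kinases, which remove the messenger of Rasgrp1, had different orders. Dgka read 1405, 1325 and 2212, highest with IL-6/TGFβ (0.66 over TGFβ and 0.74 over IL-6/IL-23). Dgkz read 4148, 2318 and 2347, highest with TGFβ (-0.82 for IL-6/TGFβ and -0.84 for IL-6/IL-23 over it). Its further probe set gave -0.59 and -1.23. For IL-6/IL-23 against TGFβ that probe set alone, or the mean of its probe sets, thus passed 2-fold. For IL-6/TGFβ against IL-6/IL-23 the probe set used gave 0.02 and the further one 0.64. Dgkz and Rasgrp1 were both highest with TGFβ.

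**Figure D3:**
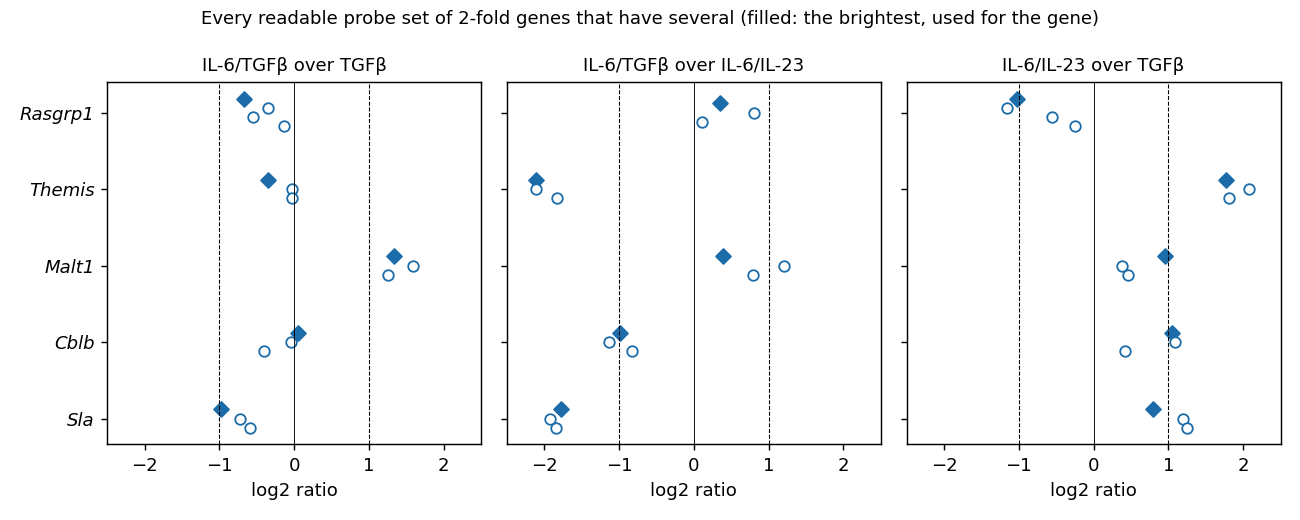
Log2 ratios of every readable probe set for the 5 genes of the 2-fold group with several, in each pair of arrays. Filled diamonds are the brightest probe sets, which stand for the gene, circles are the further ones, and dashed lines mark 2-fold. The 3 probe sets of Themis lie between -2.12 and -1.84 for IL-6/TGFβ against IL-6/IL-23, and those of Cblb between 0.43 and 1.09 for IL-6/IL-23 against TGFβ.

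Cd2, Cd5 and Cd6 are surface receptors that tune the contact with the antigen-presenting cell. Cd2, an adhesion receptor, read 3889, 3656 and 4974. Cd5, an inhibitory receptor whose level is known to follow signal strength, read 4394, 7804 and 4955. Cd6, its neighbour in RefSeq and of the same scavenger family, read 2149, 3821 and 2617. Both were highest with IL-6/IL-23, at 0.83 over TGFβ, and the 2 genes gave -0.66 and -0.55 for IL-6/TGFβ against IL-6/IL-23. Each has 1 probe set, and none of these ratios reached 2-fold; Cd5 did so in both pairs with median scaling, and without scaling the ratio of Cd6 for IL-6/IL-23 against TGFβ changed sign.

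Taken by pair, IL-6/TGFβ against TGFβ was the one from which the study sought genes of Th17 polarization. Malt1, Txk and Ptpn22 were at least 2-fold higher under IL-6/TGFβ and Sit1 and Trat1 at least 2-fold lower. That is 3 of 41 genes higher, against 2.59% of all named genes, and 2 lower, against 1.83%, or 12.2% against 4.42% in either direction. The median ratio of the 41 genes was -0.06 and that of all named genes 0.02. The split depended on scaling: with median scaling 2 were higher and 4 lower (1.94% and 2.30% of all named genes), and without scaling 0 and 8 (1.19% and 6.70%).

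IL-6/TGFβ against IL-6/IL-23 was meant by the study to remove genes that act on IL-17 but not on IL-10. Plcg1 and Ubash3a were at least 2-fold higher under IL-6/TGFβ, and Themis, Sla and Trat1 at least 2-fold lower. That is 2 of 41 genes higher, against 3.68% of all named genes, and 3 lower, against 3.09%, or 12.2% against 6.76% in either direction. The median ratio was -0.01 and that of all named genes -0.04. With median scaling 1 was higher and 5 were lower (2.69% and 4.65% of all named genes), and without scaling 5 and 2 (10.6% and 1.31%). By the probe sets used, only Trat1 of the list passed the rule in the same direction in both pairs with the IL-6/TGFβ array. The pairs share that array, and both ratios of Trat1 are bounds. A further probe set of Malt1 also passed in both, at 1.59 against TGFβ and 1.20 against IL-6/IL-23. The Malt1 probe set used gave 1.34 and 0.38.

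For IL-6/IL-23 against TGFβ, Themis, Ptpn22 and Cblb were at least 2-fold higher and Sit1, Ubash3a and Rasgrp1 at least 2-fold lower. That is 3 of 41 genes in each direction, against 3.25% higher and 3.09% lower of all named genes, or 14.6% against 6.34% together. The median ratio was -0.07 and that of all named genes 0.06. With median scaling 5 were higher and 2 lower (3.76% and 3.02% of all named genes) and the median turned to 0.10. Without scaling 0 were higher and 16 lower, but 33.1% of all named genes were then lower as well (0.835% higher). These conditions differed in all 3 cytokines, so no ratio belongs to 1 of them.

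Other genes of the pathway were taken from a list of 71, of which 56 had a probe set. This list too was chosen with earlier results of these data known. For IL-6/TGFβ against TGFβ, 2 of 53 readable genes were at least 2-fold higher and 2 lower, or 7.55% against 4.42% of all named genes, with a median of 0.02. For IL-6/TGFβ against IL-6/IL-23, 7 of 54 were higher and 6 lower, or 24.1% against 6.76% of all named genes, with a median of 0.09. For IL-6/IL-23 against TGFβ, 4 of 54 were higher and 6 lower, or 18.5% against 6.34%, with a median of -0.04.

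**Figure D4:**
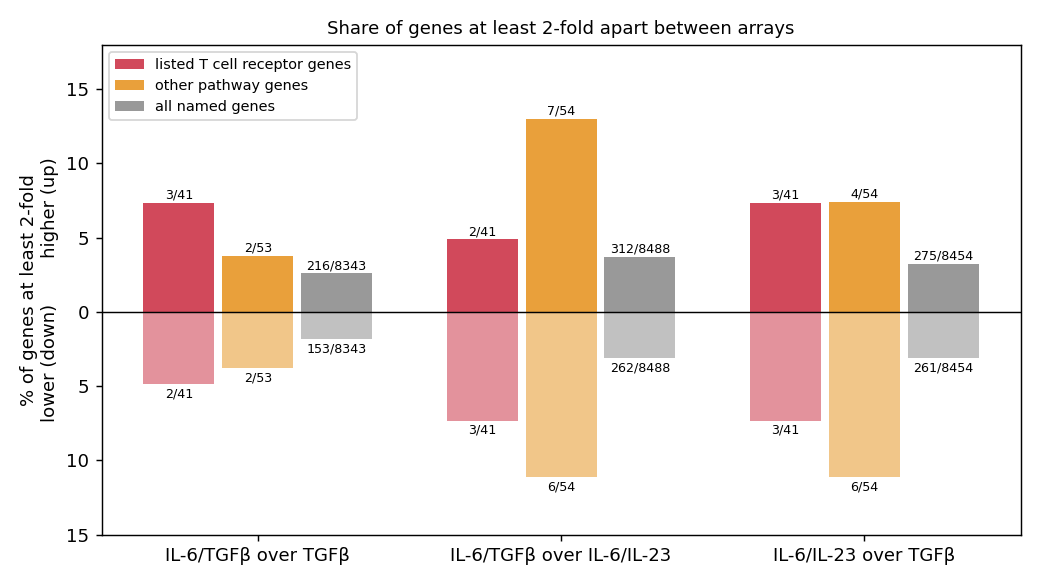
Share of genes at least 2-fold higher (up) or lower (down) in each pair of arrays, for the listed T cell receptor genes, the other pathway genes and all named genes, with counts over the number readable. For IL-6/TGFβ against IL-6/IL-23 the other pathway genes reached 7 of 54 higher and 6 of 54 lower.

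The 8 genes with the largest ratios of that list are given here. Tec, a kinase of the same family as Txk, read 96.2, 150 and 571 and was 5.93-fold higher under IL-6/TGFβ than under TGFβ (2.57). Its TGFβ level lay near the floor of 85.9, and it has 1 probe set. Txk and Tec thus had the same order over the arrays, as had Malt1. With 3 arrays shared orders are common. Of all named genes, 26.7%, 41.7% and 31.5% were highest with TGFβ, IL-6/IL-23 and IL-6/TGFβ. Ubash3b, which encodes Sts-1, the paralog of Sts-2, read 674, 167 and 512, 4.03-fold lower under IL-6/IL-23 than under TGFβ (-2.01), with the order of Ubash3a. Pik3r1, the regulatory subunit of phosphoinositide 3-kinase, read 1028, 346 and 1026.

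Several of the others were highest with IL-6/IL-23. Tespa1, an adaptor of thymocyte signalling with the order of Themis over the arrays, read 125 and 310 and was under the floor with IL-6/TGFβ, at least 3.60-fold lower than with IL-6/IL-23. Crtam, an adhesion receptor of activated T cells, was above the floor with IL-6/IL-23 alone (354), at least 4.12-fold over either other array. Evl, an actin regulator bound by ADAP, read 399, 1334 and 605. The costimulatory receptor gene Cd28 read 1770, 5316 and 2840. Sh2d1a, which encodes the adaptor SAP, read 990, 1203 and 431 and was lowest with IL-6/TGFβ (-1.20 and -1.48).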

How the data were processed

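RNA of 3 cultures was measured on Affymetrix mouse arrays from biotin-labelled cRNA made from 10 µg of total RNA, per the labels' protocols. The authors deposited 1 linear intensity for each probe set of an array. How they summarized, background-corrected and scaled these is not given in the sources used here, and deposited medians of 35.8, 17.8 and 28.1 show that the arrays had not been brought to 1 median. From 45101 probe sets 64 controls were left out, and log2 intensities were quantile-normalized with limma 3.58.1 in R 4.3.3, which removes any real difference in total mRNA. Of 45037 probe sets, 34945 carried 1 gene symbol. Those with several (932) or unnamed here (9160) stood for no gene. The annotation was GEO's for the platform. The floor used 82 of 89 listed genes of other tissues. A call needed 2-fold and a brighter array over the floor, and genes at the floor on both arrays of a pair had no ratio. Named genes were all members at 1.5-fold or more, the extremes of each role, the 8 largest of the other pathway genes and the 3 profiles most like the largest member. Probe-set SDs came from the median absolute deviation over 3205, 3162 and 3153 genes. The calls were tested on simulated data with changes planted in genes whose mean level was more than 2-fold above the floor. Dimmer genes were not covered in that simulation. Noise there was the probe-set spread alone, so that run cannot bear on differences between cultures, mice and arrays. The alternatives were 2 scalings, other floors, a 1.5-fold rule and other choices of probe set. The members and lists were chosen with earlier results of these data known. The number of arrays limits the precision.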

Additional observations from a re-analysis of the deposited data

How the results depend on the processing

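The direction of the 16 calls (5, 5 and 6 by pair) was the same in all alternatives that gave a ratio, but the counts were not. With median scaling, 4, 4 and 5 of them were kept, with 4 lower for IL-6/TGFβ against TGFβ, 1 higher and 5 lower for IL-6/TGFβ against IL-6/IL-23, and 5 higher for IL-6/IL-23 against TGFβ. Median scaling moved the median ratio of all named genes by -0.10, -0.18 and 0.07 in the same order, and leaving the arrays unscaled moved it by -0.44, 0.44 and -0.87. Without scaling 2, 4 and 3 calls were kept. The counts were then 0 higher and 8 lower, 5 higher, and 0 higher and 16 lower, and the medians of the members -0.52, 0.41 and -0.91. A floor at the 99th percentile (245) left 0 lower for IL-6/TGFβ against TGFβ. The mean of probe sets left 1 lower there and 0 higher for IL-6/TGFβ against IL-6/IL-23. The 1.5-fold rule gave 5 higher and 7 lower, then 6 higher and 9 lower, then 8 higher for IL-6/IL-23 against TGFβ. In either direction this is 29.3%, 36.6% and 29.3% of the members, beside 13.5%, 19.6% and 17.9% of all named genes. The remaining counts were within 1.5 times. A floor of 60.6, from a list without Mbp and chosen after seeing the data, kept all 16 calls and added Grap2, as did the 90th percentile (38.2). Themis and Sla kept their call for IL-6/TGFβ against IL-6/IL-23 in every alternative. The causes of the changes in counts were not tested. Genes near the floor, such as Trat1, Sit1 and Grap2, are limited by their signal. No leaving out of replicates and no paired analysis was possible because each condition has 1 array.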
